A study of Mus musculus with 54 samples.

Results

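10 genes for G protein-coupled receptors that carry modulatory signals onto the suprachiasmatic nucleus (SCN), the master circadian pacemaker of the hypothalamus, were followed over a light/dark cycle. They were chosen by symbol, as the receptors for cannabinoids (*Cnr1*), pituitary adenylate cyclase-activating peptide or PACAP (*Adcyap1r1*), neuropeptide Y (*Npy1r*, *Npy2r* and *Npy5r*), serotonin (*Htr1b*, *Htr2c* and *Htr7*) and melatonin (*Mtnr1a*), together with the orphan receptor *Gpr176*, and make up 10 of the 30031 genes in the count table. The SCN was cut by laser-capture microdissection from Nissl-stained brain sections of male C3H/HeH mice aged 10 to 12 weeks, kept in 12 hr of light and 12 hr of dark and sampled at 1 of 6 zeitgeber times (ZT2, ZT6, ZT10, ZT14, ZT18 and ZT22, in hours after lights on). The names of all 18 columns carry WT, and the labels name no genotype or treatment that differed between timepoints. Each timepoint had 3 biological replicates (A, B and C), each a pool of 5 mice, and each was sequenced as 3 technical replicates that the authors combined.

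Light reaches the SCN along the retinohypothalamic tract, whose terminals release glutamate and PACAP. The geniculohypothalamic tract brings NPY and the raphe nuclei bring serotonin, and both inputs can shift the clock or blunt its response to light. CB1, the product of *Cnr1*, sits on nerve terminals and holds back transmitter release, MT1 receives the nightly melatonin signal, and Gpr176 is an orphan receptor of SCN neurons that lowers cyclic AMP. RNA measured in captured SCN tissue comes from cell bodies there, so it does not report receptors on the terminals of incoming axons.

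Of the 10 receptor genes, 4 changed over the day in a test that all 6 timepoint means were equal: *Cnr1*, *Npy2r*, *Adcyap1r1* and *Npy1r*. All 4 had their highest mean in the late night or early morning (ZT22 or ZT2), and *Cnr1*, *Npy2r* and *Adcyap1r1* were low in the daytime at ZT6 and ZT10. This share (40.0%) was close to that of all genes, since 44.0% of the 18941 genes tested passed the same test. For *Htr1b*, *Htr2c*, *Htr7*, *Npy5r*, *Mtnr1a* and *Gpr176* the test was not passed. DESeq2 added *Htr1b* and *Mtnr1a*, which made 6 of 10, against 56.5% of all genes in that fit. A filter of 10 counts in every replicate removed *Npy2r*, *Htr1b* and *Mtnr1a*. It left 3 receptor genes passing, against 7786 of 11444 genes. *Cnr1*, *Npy2r* and *Adcyap1r1* were also called cycling, that is, they passed JTK_CYCLE, a rank test for a wave with a 24 hr period, as well as the time test (3 of 10, against 29.9% of all genes). This call was lost for *Cnr1* without ZT10 replicate A, ZT10 replicate B or ZT22 replicate C and for *Adcyap1r1* without ZT10 replicate A or B (exact p of JTK_CYCLE = 0.0662 each time). *Adcyap1r1* also lost it with recovered reads and in cosinor fits, and *Npy2r* alone kept it when Benjamini-Hochberg adjustment over genes was added.

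**Figure D1:**
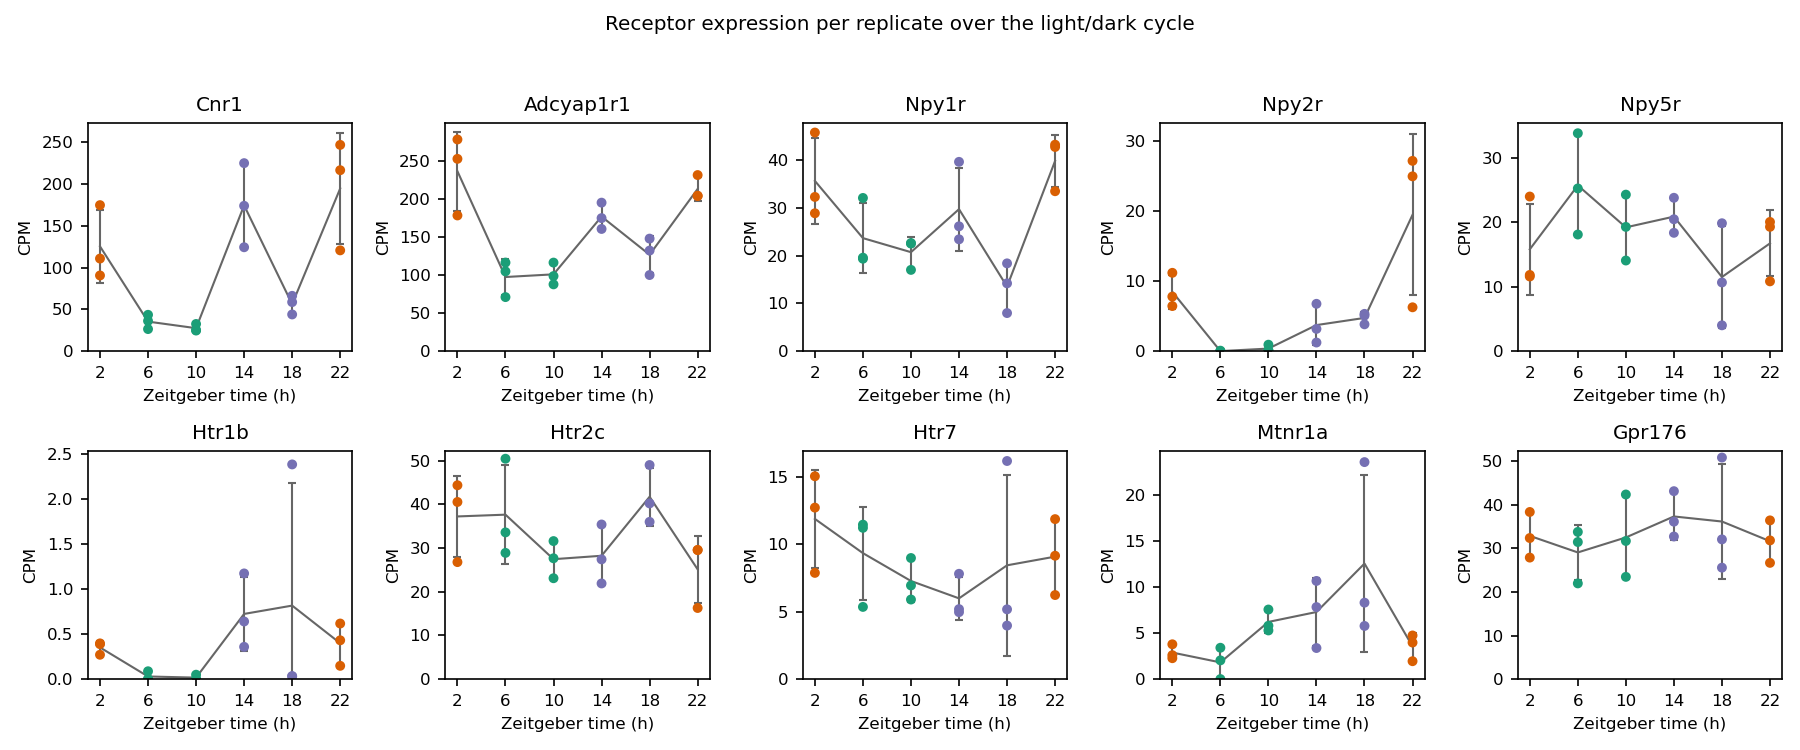
Expression in CPM (y axis, linear, from 0) against zeitgeber time in hours (x axis) for each receptor gene. Points are the 3 replicates of a timepoint, coloured by the library cluster they belong to (orange for ZT22 and ZT2, green for ZT6 and ZT10, violet for ZT14 and ZT18), and the line joins means ± SD. Cnr1 reached 174 CPM at ZT14 and 194 CPM at ZT22 with 56.3 CPM between them at ZT18, while Gpr176 stayed between 29.1 and 37.3 CPM.

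Between 15412981 and 35820945 reads were counted on genes per replicate, with a median of 25075231. Levels are given as CPM, counts scaled to a common library size with edgeR's TMM factors, and 3 reads, taken as the limit of detection, were worth between 0.0825 and 0.183 CPM per library; this limit covers counting error only. Markers of SCN neurons were present in every library, with 10 of 10 detected and a summed level of 1764 to 5692 CPM, led by *Vip*. Other cells were present as well, with sums of 1350 to 6226 CPM for oligodendrocytes (led by *Mbp*), 131 to 372 CPM for microglia (*P2ry12*), 182 to 563 CPM for endothelium (*Itm2a*) and 36.7 to 260 CPM for neighbouring hypothalamic neurons (*Sst*). Among the 500 most variable genes, the 5 nearest libraries of 17 of the 18 replicates were those of their own cluster, where a cluster joins ZT22 and ZT2, ZT6 and ZT10, or ZT14 and ZT18. The clusters were taken from the study's principal component analysis of these same libraries, so this closeness is a description and no independent test of them. Which libraries shared a sequencing batch is not given in the labels. A difference between timepoints of different clusters cannot be told apart from a batch that follows the clusters, though no label ties them to one. ZT10 against ZT6, ZT18 against ZT14 and ZT2 against ZT22 lie inside a cluster, which does not show these steps to be free of a batch. The paper describes its libraries as separated by timepoint and sequencing batch, and takes the timing of clock genes as a sign of minimal batch effects. The authors' count and normalized tables also differ more at ZT6 and ZT10, where the read number was the same in both for 34.8% to 45.4% of the genes with any reads that they share, against 94.8% to 96.5% at the other timepoints. For *Cnr1* and *Adcyap1r1* the reads recovered there were 97.5% to 100% and 95.9% to 99.6% of those counted.

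The start sites of the 3 cycling receptor genes are shown because these genes passed both tests over time, and that of *Mtnr1a*, which passed JTK_CYCLE but not the time test, because it held both motifs marked here. The window of *Npy1r* is left out since it lies mostly in exon sequence of GENCODE. Each window holds the 250 bases before the RefSeq start (GRCm38.p6), 5′ to 3′ on the strand of the gene, and capitals mark an E-box (CACGTG) or E′-box (CACGTT or its reverse complement AACGTG), the sites bound by the CLOCK and BMAL1 family of factors. They lie at chr4:33924394-33924643 (plus strand, *Cnr1*), chr3:82548086-82548335 (minus strand, *Npy2r*), chr6:55451728-55451977 (plus strand, *Adcyap1r1*) and chr8:45068857-45069106 (plus strand, *Mtnr1a*).
Cnr1: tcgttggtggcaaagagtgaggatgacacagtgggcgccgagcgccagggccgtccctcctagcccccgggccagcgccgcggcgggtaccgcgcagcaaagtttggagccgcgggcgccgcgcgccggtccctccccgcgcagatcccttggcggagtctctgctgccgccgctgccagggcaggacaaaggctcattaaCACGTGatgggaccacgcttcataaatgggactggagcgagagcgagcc
Npy2r: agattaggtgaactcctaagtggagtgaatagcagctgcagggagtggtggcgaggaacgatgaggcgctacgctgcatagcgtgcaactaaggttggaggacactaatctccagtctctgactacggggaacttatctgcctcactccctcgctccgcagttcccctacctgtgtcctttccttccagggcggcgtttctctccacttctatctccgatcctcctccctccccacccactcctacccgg
Adcyap1r1: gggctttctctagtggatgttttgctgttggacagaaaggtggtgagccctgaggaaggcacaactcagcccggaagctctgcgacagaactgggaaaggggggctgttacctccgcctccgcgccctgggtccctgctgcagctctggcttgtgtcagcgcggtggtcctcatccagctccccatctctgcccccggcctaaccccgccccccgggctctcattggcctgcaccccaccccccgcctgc
Mtnr1a: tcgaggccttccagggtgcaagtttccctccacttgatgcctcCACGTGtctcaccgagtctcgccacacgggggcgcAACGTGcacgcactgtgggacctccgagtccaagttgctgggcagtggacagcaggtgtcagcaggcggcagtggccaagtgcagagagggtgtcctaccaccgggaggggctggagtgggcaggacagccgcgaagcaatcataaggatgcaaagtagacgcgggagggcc

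In the *Cnr1* window an E-box lay at positions -49 to -44 from the start, inside the first exon of a non-coding *Cnr1* transcript that GENCODE M21 begins at 33924593. *Mtnr1a* had an E-box at -207 to -202 and an E′-box at -172 to -167, and *Npy5r* (chr8:66688095-66688344, minus strand) an E-box at -40 to -35. In all, 3 of the 10 receptor windows held CACGTG on either strand, against 6.02% of the 32851 windows of this length in the RefSeq table, and 1 held CACGTT (3.85% of all windows). The cyclic AMP response element TGACGTCA (1.55%), the D-box TTATGTAA (0.819%) and the ROR element (0.609%) were found in 0 of the 10. The half-site TGACG, which TGACGTCA contains, was found in *Htr7* alone (17.8% of all windows). The windows of *Npy2r* and *Adcyap1r1* held none of the 6 motifs; a match is a description of these letters and not a bound site.

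*Cnr1* (chr4:33924593-33948831) encodes CB1, the main cannabinoid receptor of the brain. Its replicates A, B and C had 175, 111 and 90.6 CPM at ZT2, 43.6, 26.6 and 36.3 CPM at ZT6, and 24.8, 25.4 and 32.7 CPM at ZT10. At ZT14 they had 174, 225 and 124 CPM, at ZT18 44.0, 66.2 and 58.8 CPM, and at ZT22 121, 216 and 246 CPM. Every replicate at ZT14 and ZT22 lay above every replicate at ZT6, ZT10 and ZT18, so that the night held a high level early and late with a low one between. The highest mean, 194 ± 65.7 CPM at ZT22 (SD, n = 3), was 7.03 times the lowest, 27.6 ± 4.37 CPM at ZT10 (SD, n = 3), and the adjusted p of the time test was 1.74e-06. In the order of the means, replicates overlapped between ZT22 and ZT14, between ZT14 and ZT2 and between ZT6 and ZT10.

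Between consecutive timepoints *Cnr1* fell by 1.82 ± 0.305 on the log2 scale (SE) from ZT2 to ZT6 (adjusted p = 0.000174), rose by 2.66 ± 0.315 from ZT10 to ZT14 (2.70e-05) and rose by 1.79 ± 0.304 from ZT18 to ZT22 (0.000439). Inside a cluster it fell by 1.63 ± 0.303 from ZT14 to ZT18 (adjusted p = 0.0245), which made it the only one of the 10 receptor genes past the threshold there, where 0.570% of all genes passed. That call was lost (adjusted p from 0.0608 to 0.121) when any of the 6 replicates at ZT14 or ZT18 was left out, with a log2 difference of -1.82 to -1.40. In these 6 fits 0 to 86 of all genes passed, against 108 with every replicate kept. The *Cnr1* mean of ZT14 and ZT22 exceeded that of ZT18 and ZT2 by 1.13 ± 0.211 (adjusted p = 0.0463), a comparison balanced within clusters that 0.148% of all genes passed. It was not passed (adjusted p from 0.052 to 0.173) without any 1 of 13 of the 18 replicates, with a log2 difference of 0.99 to 1.29. In those fits 0 to 27 of all genes passed, against 28 with every replicate kept. *Cnr1* also did not pass with DESeq2 size factors (1.09, adjusted p = 0.0585, where 17 of all genes passed). The same held for upper-quartile scaling (1.09, 0.0602, 13 genes) and a replicate block (1.13, 0.0691, 20 genes). *Cnr1* and *Npy2r* belong to a set that the study picked on these samples as peaking at ZT14 and ZT22, so their direction here is not independent evidence for it.

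**Figure D2:**
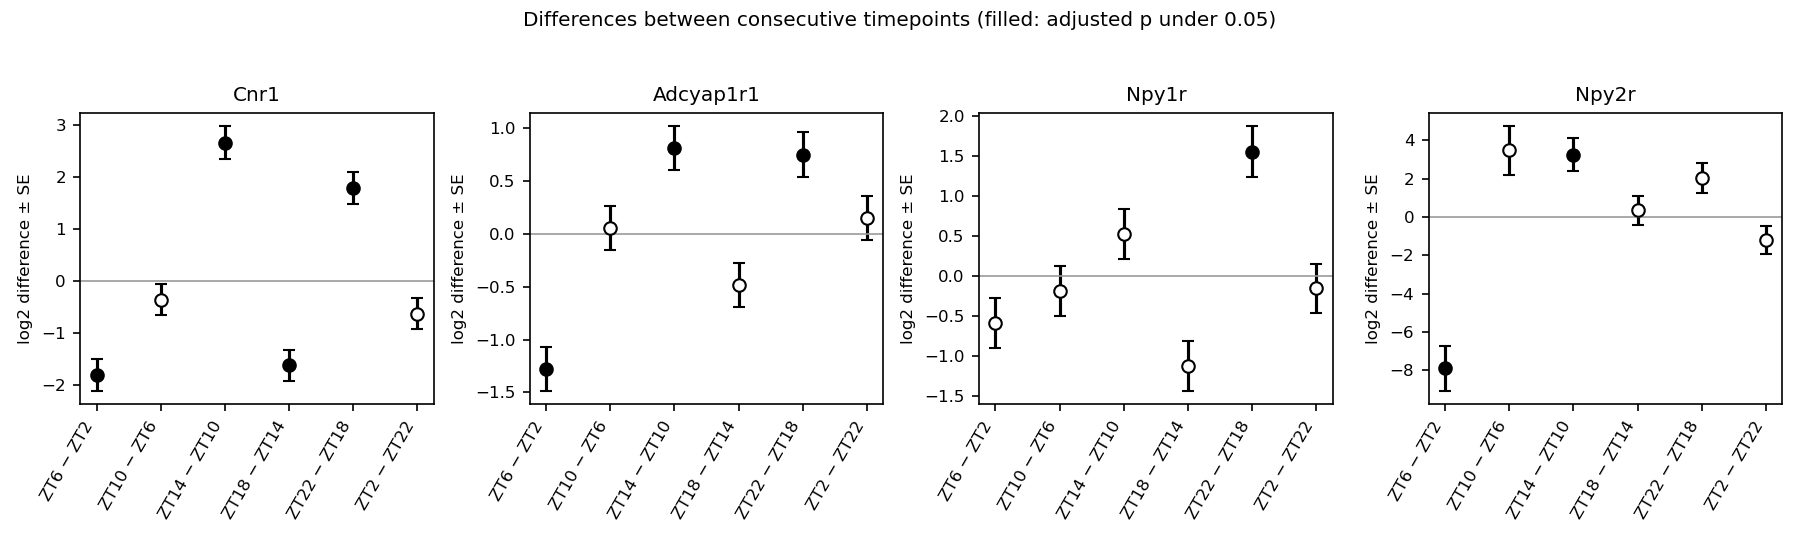
Fitted log2 difference ± SE (y axis) between consecutive timepoints (x axis) for the 4 receptor genes that changed over the day, each panel on its own scale. Filled points passed the adjusted threshold of 0.05, as Cnr1 did in 4 of the 6 steps; the steps ZT10 − ZT6, ZT18 − ZT14 and ZT2 − ZT22 lie inside a library cluster.

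Genes of telencephalic excitatory neurons, a list of 10 markers led by *Cux2*, had reads in 10 of 10 cases, and their summed level was high at the same timepoints as *Cnr1*. Their summed level was 208 to 366 CPM at ZT14 and 154 to 357 CPM at ZT22, against 125 to 146 CPM at ZT18, 180 to 218 CPM at ZT2, 94.8 to 103 CPM at ZT6 and 87.6 to 180 CPM at ZT10. Of the 10, 7 had their highest mean at ZT14 or ZT22, 5 passed the time test and 1, *Slc17a7*, passed the comparison of ZT14 and ZT22 with ZT18 and ZT2, while *Cux2* was highest at ZT2 and *Emx1* and *Fezf2* at ZT10. *Slc17a7*, a vesicular glutamate transporter on that list and in the study's own set, had 61.0 ± 18.9 CPM at ZT14 and 15.5 ± 3.94 CPM at ZT18 (SD, n = 3), a log2 difference of -1.98 (adjusted p = 0.0352). *Neurod6*, a transcription factor of cortical neurons, had 70.7 ± 43.8 CPM at ZT22 and 1.29 ± 1.10 CPM at ZT6 (SD, n = 3). The orders of the replicates differed within ZT14, where *Cnr1* was highest in replicate B and the marker sum in replicate C, and matched in their lowest member at ZT22, replicate A for both. The part of these cells in the *Cnr1* result was not tested. In bulk tissue, fewer cells of a type and less RNA per cell cannot be told apart.

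**Figure D3:**
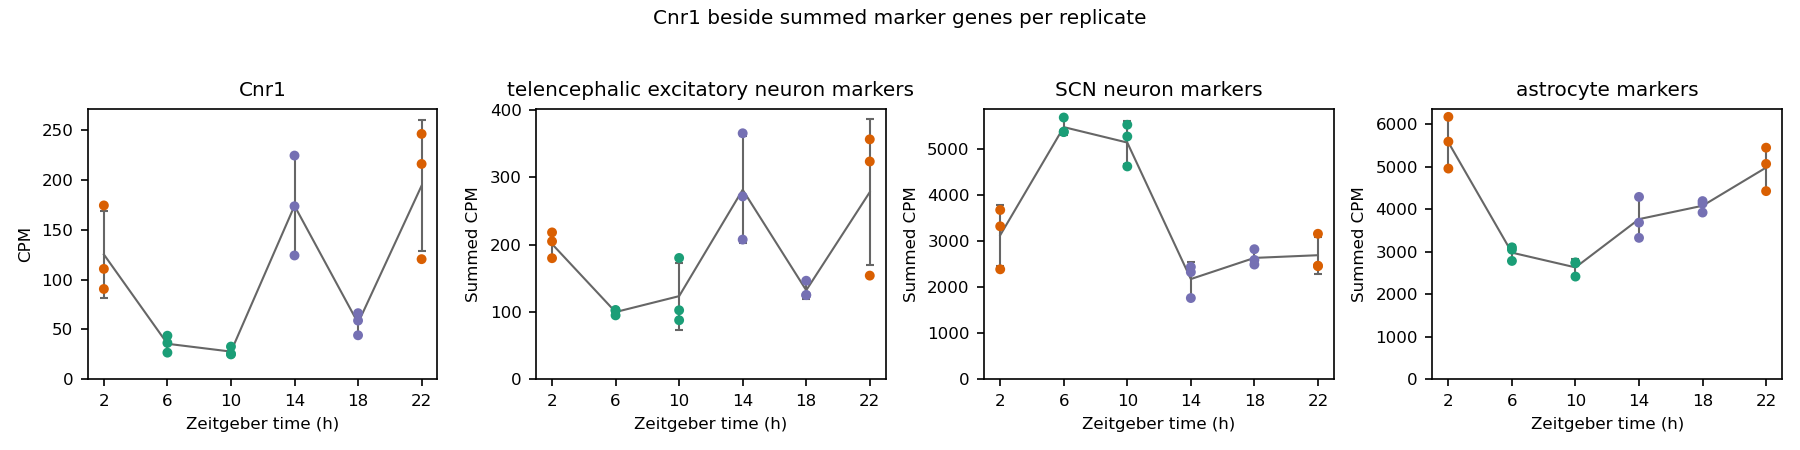
Cnr1 in CPM and the summed CPM of 3 lists of 10 marker genes (y axes, linear, from 0) against zeitgeber time in hours (x axis). Points are replicates coloured by library cluster (orange for ZT22 and ZT2, green for ZT6 and ZT10, violet for ZT14 and ZT18), with lines joining means ± SD. The telencephalic sum was high at ZT14 and ZT22, as was Cnr1, while the SCN neuron sum was highest at ZT6 and the astrocyte sum at ZT2.

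*Adcyap1r1* (chr6:55451978-55501451) encodes PAC1, the receptor through which PACAP from retinal terminals acts on SCN cells. Its replicates had 179, 279 and 253 CPM at ZT2, then 105, 117 and 71.4 CPM at ZT6 and 88.1, 99.0 and 117 CPM at ZT10. They had 175, 161 and 196 CPM at ZT14, 133, 148 and 100 CPM at ZT18 and 204, 205 and 232 CPM at ZT22. All replicates at ZT6 and ZT10 lay below all those at ZT14, ZT22 and ZT2, and the level at ZT18 dipped beneath that at ZT14 with no overlap. The time test gave an adjusted p of 0.000125 for a range from 97.8 ± 23.6 CPM at ZT6 to 237 ± 52.0 CPM at ZT2 (SD, n = 3), a ratio of 2.42.

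Its level fell by 1.28 ± 0.211 on the log2 scale (SE) from ZT2 to ZT6 (adjusted p = 0.000149), rose by 0.81 ± 0.209 from ZT10 to ZT14 (0.0123) and rose by 0.75 ± 0.209 from ZT18 to ZT22 (0.0175). The rise from ZT10 to ZT14 missed the threshold without ZT10 replicate A (adjusted p = 0.0601) or ZT14 replicate C (0.0536) and with recovered reads (0.59, adjusted p = 0.0603), and that from ZT18 to ZT22 without ZT18 replicate C (0.0712) or ZT22 replicate C (0.0717). From ZT14 to ZT18, inside a cluster, the log2 difference was -0.48 ± 0.208 (adjusted p = 0.311). Astrocytes also express this receptor, and the summed level of 10 astrocyte markers was likewise lower at ZT6 (2784 to 3104 CPM) and ZT10 (2416 to 2750 CPM) than at ZT2 (4961 to 6179 CPM) and ZT22 (4429 to 5452 CPM), with 3328 to 4293 CPM at ZT14 and 3924 to 4194 CPM at ZT18. The telencephalic marker sum was lower at ZT10 (87.6 to 180 CPM) than at ZT14 (208 to 366 CPM). It was also lower at ZT18 (125 to 146 CPM) than at ZT22 (154 to 357 CPM). Whether cells of either kind account for part of the *Adcyap1r1* result was not tested.

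The NPY receptors answer to the peptide of the geniculohypothalamic tract through inhibitory G proteins. *Npy1r* (chr8:66697192-66706792) and *Npy5r* (chr8:66679965-66688128) lie head to head on opposite strands with 9063 bp between them, and *Npy2r* (chr3:82538383-82548084) encodes the receptor often found on NPY terminals themselves.

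*Npy2r* had the widest range over the day among the receptor genes that changed. Its replicates had 114, 181 and 290 reads at ZT2 (6.45, 7.79 and 11.2 CPM), but 0, 2 and 0 reads at ZT6 and 3, 2 and 20 reads at ZT10, where levels were 0.146, 0.0868 and 0.944 CPM. At ZT14 they had 45, 110 and 246 reads (1.26, 3.19 and 6.76 CPM), at ZT18 159, 166 and 63 reads (5.09, 5.33 and 3.84 CPM), and at ZT22 173, 738 and 695 reads (6.27, 27.1 and 24.9 CPM). All replicates at the other 4 timepoints thus lay above all those at ZT6 and ZT10, and ZT22 replicate A lay far beneath B and C. Summed over replicates, 585 reads at ZT2 stood against 2 at ZT6, a ratio of 286 after scaling with an exact 95% interval for counting error of 78.7 to 2364. The reads recovered from the authors' normalized table were 0, 2 and 0 at ZT6 and 2, 0 and 19 at ZT10. The telencephalic marker sum was also lower at ZT6 (94.8 to 103 CPM) than at ZT2 (180 to 218 CPM). It was lower at ZT10 (87.6 to 180 CPM) than at ZT14 (208 to 366 CPM), and at ZT18 (125 to 146 CPM) than at ZT22 (154 to 357 CPM). At ZT22 replicate A was the lowest for both. The sum fell from ZT14 to ZT18, whereas the means of *Npy2r* were 3.74 CPM at ZT14 and 4.75 CPM at ZT18. The part of these cells in the level of *Npy2r* was not tested.

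The time test gave *Npy2r* an adjusted p of 2.94e-05. It fell from ZT2 to ZT6 (adjusted p = 4.7e-05, with a fitted log2 difference of -7.89 ± 1.19 that depends on the prior count). From ZT10 to ZT14 it rose, with a fitted log2 difference of 3.24 ± 0.859 (adjusted p = 0.0138). At ZT10 replicates A and B lay at or under the limit of 3 reads, so the level there rests mostly on replicate C. The call from ZT10 to ZT14 was lost without ZT10 replicate A (log2 difference 2.86, adjusted p = 0.0632), ZT10 replicate B (2.76, 0.0678) or ZT14 replicate C (2.495, 0.0744). The difference of 2.03 ± 0.773 from ZT18 to ZT22 had an adjusted p of 0.0788, and passed without ZT22 replicate A (0.0438) or ZT10 replicate C (0.0445), with a looser filter on low counts (0.0497) and in DESeq2 (0.0164, where 26.8% of all genes passed). The log2 difference of *Npy2r* from ZT14 to ZT18 was 0.35 ± 0.750 (adjusted p = 0.912), and ZT14 and ZT22 differed from ZT18 and ZT2 by 0.42 ± 0.529 (0.871).

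*Npy1r*, the receptor for NPY on many postsynaptic neurons, had 28.8, 45.7 and 32.3 CPM at ZT2, 19.3, 19.6 and 32.0 CPM at ZT6, 22.6, 17 and 22.5 CPM at ZT10, 39.6, 23.4 and 26.1 CPM at ZT14, 14.2, 18.4 and 7.99 CPM at ZT18, and 33.4, 43.2 and 42.7 CPM at ZT22. Replicates at ZT18 lay below those at ZT14, ZT22 and ZT2 without overlap, but each step in the order of the means joined timepoints that overlapped. The time test gave an adjusted p of 0.00567, from 39.8 ± 5.48 CPM at ZT22 to 13.5 ± 5.22 CPM at ZT18 (SD, n = 3), a ratio of 2.94. Its rise of 1.55 ± 0.316 on the log2 scale from ZT18 to ZT22 passed the threshold (adjusted p = 0.00206), and the telencephalic marker sum was likewise lower in all replicates at ZT18 (125 to 146 CPM) than at ZT22 (154 to 357 CPM), whose part in it was not tested. The difference of *Npy1r* of -1.13 ± 0.312 from ZT14 to ZT18 did not pass (0.102), but did in DESeq2 (0.0149, where 5.17% of all genes passed). The exact test of JTK_CYCLE gave p = 0.572 for a single wave. In the reads recovered from the authors' normalized table, *Npy1r* held between 69.9% and 90.4% of the counted reads at ZT6 and ZT10 and 100% at the other timepoints, and the time test was passed there too.

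*Npy5r* is expressed together with *Npy1r* in many brain regions. Its replicates ranged from 4.03 CPM (ZT18 replicate C) to 33.8 CPM (ZT6 replicate B), with means from 11.5 ± 7.94 CPM at ZT18 to 25.7 ± 7.85 CPM at ZT6 (SD, n = 3) and an adjusted p of 0.326. Its highest mean fell in the day, where those of *Npy1r* and *Npy2r* fell at ZT22, but neighbouring timepoints overlapped throughout.

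Serotonin reaches the SCN through receptors of several classes, of which 5-HT1B inhibits transmitter release from retinal terminals, 5-HT2C couples to calcium through Gq and 5-HT7 raises cyclic AMP. *Htr1b* (chr9:81628291-81633828) had few reads, 177 in all 18 replicates together, and lay at or under the limit of 3 reads in every replicate at ZT6 and ZT10 and in replicates A and B at ZT18. It had 7, 9 and 7 reads at ZT2, 2, 0 and 0 at ZT6, and 1, 0 and 0 at ZT10. The replicates at ZT14 had 42, 22 and 13 reads, those at ZT18 had 1, 1 and 39, and those at ZT22 had 17, 4 and 12. The replicates at ZT14, ZT22 and ZT2 lay above those at ZT6 and ZT10, and ZT18 replicate C stood far above its partners. The adjusted p of the time test was 0.0762, and it passed without any 1 of the ZT18 replicates (0.0418 without A, 0.0407 without B and 0.0119 without C). The step from ZT10 to ZT14, from 1 read to 77 in all, had an adjusted p of 0.0589, and passed in DESeq2 (0.0231, where 24.8% of all genes passed), with recovered reads (0.0290) and without ZT6 replicate C (0.0486) or any 1 of the ZT18 replicates (0.0159 to 0.0438). Its exons overlap those of the antisense gene *D430036J16Rik*, and the library kit does not keep the strand, so reads there cannot be told apart and may have been assigned to neither gene.

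*Htr2c* (chrX:146962513-147197277) was the highest of the 3 serotonin receptors per kb of exon. Its replicates ranged from 16.3 CPM (ZT22 replicate B) to 50.4 CPM (ZT6 replicate C), with means from 25.1 ± 7.66 CPM at ZT22 to 41.7 ± 6.64 CPM at ZT18 (SD, n = 3) and an adjusted p of 0.164. At ZT18 its replicates had 36, 40.2 and 49 CPM, above those at ZT22 (29.5, 16.3 and 29.6 CPM), but the log2 difference of -0.73 ± 0.286 between them had an adjusted p of 0.0870. The choroid plexus is rich in *Htr2c*, and markers of choroid plexus and ependyma, led by *Ttr*, varied widely between libraries. Per timepoint they summed to 28.2 to 37.8 CPM at ZT18, where *Htr2c* was highest, 26.9 to 286 CPM at ZT22, where it was lowest, 113 to 2402 CPM at ZT2, 22.9 to 2849 CPM at ZT6, 9.33 to 3487 CPM at ZT10 and 16 to 1432 CPM at ZT14. The part of these cells in the *Htr2c* level was not tested.

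*Htr7* (chr19:35958734-36057507) had means from 5.99 ± 1.58 CPM at ZT14 to 11.9 ± 3.66 CPM at ZT2 (SD, n = 3), and all neighbours in the order overlapped. Its lowest and highest values both fell at ZT18, 3.97 CPM in replicate A and 16.2 CPM in replicate C, and the adjusted p of the time test was 0.560. The ZT18 mean of 8.44 ± 6.73 CPM (SD, n = 3) rests largely on replicate C, and without that replicate the adjusted p was 0.0950. This library had the fewest counts (15412981), and also held the lowest values of *Npy1r* and *Npy5r* and the highest of *Htr1b*, *Mtnr1a* and *Gpr176*.

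*Mtnr1a* (chr8:45069137-45088506) encodes MT1, and C3H mice, unlike many laboratory strains, make melatonin at night. Its replicates had 2.60, 3.79 and 2.27 CPM at ZT2, 2.04, 3.41 and 0 CPM at ZT6, 7.57, 5.29 and 5.80 CPM at ZT10, 7.84, 10.7 and 3.38 CPM at ZT14, 8.32, 5.78 and 23.6 CPM at ZT18, and 4.75, 1.95 and 3.98 CPM at ZT22. All replicates at ZT10 and ZT18 lay above all those at ZT22, ZT2 and ZT6, with those at ZT14 overlapping both sides. The means ran from 1.82 ± 1.72 CPM at ZT6 to 12.6 ± 9.65 CPM at ZT18 (SD, n = 3). The mean at ZT18 rests on replicate C (23.6 CPM), since replicates A and B lay within the range of those at ZT14.

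The exact test of JTK_CYCLE placed *Mtnr1a* at a peak of ZT14 (p = 0.0239), but the time test had an adjusted p of 0.105, so it was not called cycling. It was called cycling with the time test of DESeq2 (adjusted p = 0.0237). Without ZT6 replicate C, the library with 0 reads, the adjusted p was 0.0181 and the gene was called cycling, and without ZT18 replicate C, the library with the highest level, it was 0.258. Recovered reads at ZT6 and ZT10 were between 62.3% and 83.7% of the counted ones.

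*Gpr176* (chr2:118277110-118373419) had the flattest means of the 10. They ran from 29.1 ± 6.26 CPM at ZT6 to 37.3 ± 5.30 CPM at ZT14 (SD, n = 3), a ratio of 1.28, with replicates between 22.0 and 50.8 CPM and an adjusted p of 0.841. Each of its neighbouring timepoints overlapped. Part of its exons is shared with *Gm29232* on the same strand, where reads may not be assigned to either gene.

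Levels can be set against each other only per kb of exon. On that scale, as mean ± SD over n = 18 replicates, *Adcyap1r1* had 24.1 ± 9.13 CPM per kb, *Cnr1* 15.9 ± 11.7, *Gpr176* 8.53 ± 1.87, *Npy1r* 7.86 ± 3.12, *Npy5r* 7.16 ± 2.72, *Htr2c* 3.53 ± 0.992, *Mtnr1a* 2.79 ± 2.54, *Htr7* 2.55 ± 1.08, *Npy2r* 1.81 ± 2.35 and *Htr1b* 0.0822 ± 0.124. Neighbours in this order differed by less than the larger of their SDs, except *Npy5r* and *Htr2c*. The means of *Adcyap1r1* and *Cnr1* were the highest at ZT2, ZT14 and ZT22, while the mean of *Cnr1* lay below that of *Gpr176* at ZT6, ZT10 and ZT18. At ZT22 *Cnr1* (30.2 ± 10.2 CPM per kb) stood beside *Adcyap1r1* (32.4 ± 2.40).

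**Figure D4:**
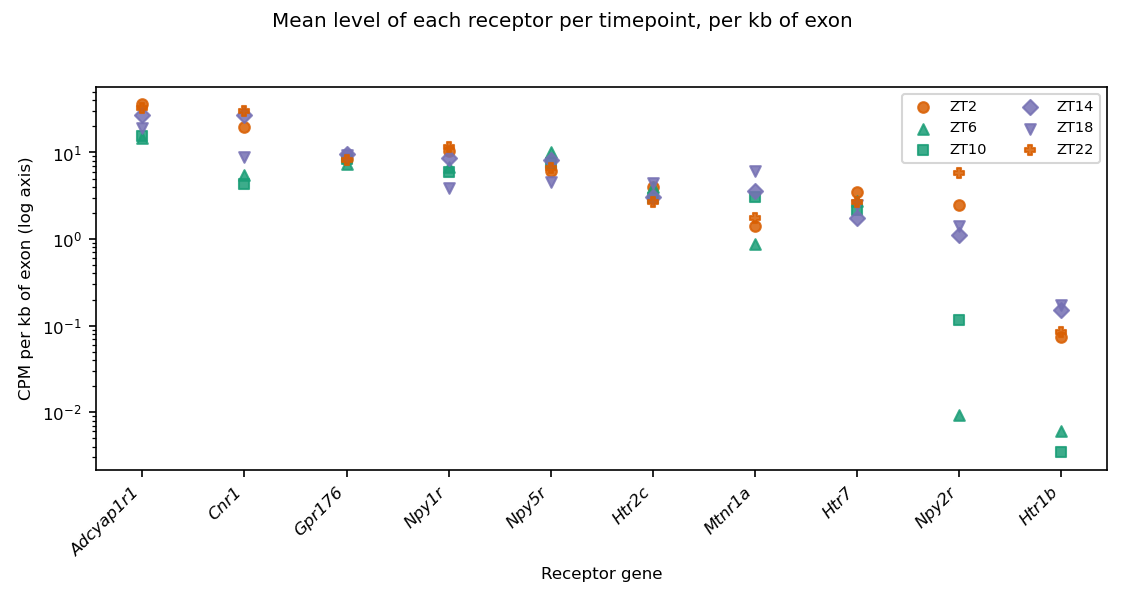
Mean CPM per kb of exon (y axis, log scale) at each timepoint for the 10 receptor genes (x axis, ordered by their mean over the day). Each symbol is the mean of the 3 replicates of a timepoint, coloured by library cluster (orange for ZT22 and ZT2, green for ZT6 and ZT10, violet for ZT14 and ZT18). Adcyap1r1 lay highest at 24.1 CPM per kb over the day, and the widest spreads were those of Npy2r and Htr1b.

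Between consecutive timepoints, 3 of the 10 receptor genes differed from ZT2 to ZT6 (33.8% of all genes did), 3 from ZT10 to ZT14 (16.8%), 1 from ZT14 to ZT18 (0.570%) and 3 from ZT18 to ZT22 (18.1%). *Cnr1*, *Npy2r* and *Adcyap1r1* fell in the first of these steps and rose in the next, *Cnr1* fell alone, and *Cnr1*, *Npy1r* and *Adcyap1r1* rose in the last. The median log2 difference over the receptor genes was -0.63 from ZT2 to ZT6, against -0.03 over all genes, 0.38 from ZT10 to ZT14, against 0.12, and 0.32 from ZT18 to ZT22, against -0.04. From ZT6 to ZT10 (0.0475% of all genes) and from ZT22 to ZT2 (0.0317%), inside clusters, edgeR called 0 of the 10, with 1 at an unadjusted p under 0.05 in each (10.8% and 3.59% of all genes), and DESeq2 called 0 as well (1.48% and 0.447% of all genes). The oligodendrocyte marker sum was 1706 to 2103 CPM at ZT10 and 4855 to 6058 CPM at ZT14, and the SCN neuron marker sum was 4628 to 5535 CPM at ZT10 and 1764 to 2441 CPM at ZT14. The SCN neuron marker sum was also 2389 to 3680 CPM at ZT2 and 5374.5 to 5692 CPM at ZT6. The oligodendrocyte marker sum was 5195 to 6226 CPM at ZT18 and 2309 to 3145 CPM at ZT22. Of the 10 markers in each list, 8 of SCN neurons and 9 of oligodendrocytes were called cycling, so neither sum is a count of cells. From ZT10 to ZT14 7 SCN neuron markers fell at the threshold, while *Vipr2* went from 183 ± 8.78 to 231 ± 17.5 CPM (SD, n = 3). From ZT2 to ZT6 4 of them rose, while *Vipr2* went from 282 ± 56.7 to 216 ± 34.6 CPM. The part of either cell type in the differences of the steps from ZT2 to ZT6, ZT10 to ZT14 and ZT18 to ZT22 was not tested.

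Other genes of the same pathways were taken from lists of receptors, ligands and partners, and their counts are read beside the 44.0% of all genes that passed the time test. Of 15 tested receptors for the same ligands, 7 passed it (46.7%), and 4 fell and 0 rose from ZT2 to ZT6, where 33.8% of all genes passed (3082 fell and 3320 rose). *Htr2a*, a serotonin receptor coupled to Gq, had 9.39 ± 4.48 CPM at ZT2 (SD, n = 3) and 0 reads in all replicates at ZT6, at least 192-fold lower with 3 reads over the group as the limit. *Htr1a*, an inhibitory serotonin receptor, had 6.61 ± 3.90 CPM at ZT18 and 0.0316 ± 0.0547 CPM at ZT6 (SD, n = 3). *Npy6r*, a further NPY receptor gene of the mouse, ranged from 26.4 ± 7.37 CPM at ZT18 to 59.8 ± 13.3 CPM at ZT2 (SD, n = 3), the same timepoint of its lowest mean as *Npy1r* and *Npy5r*.

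Of 17 tested genes for the ligands or the enzymes that make and remove them, 14 passed the time test (82.4%, against 44.0% of all genes). Genes with at least 10 counts in every replicate passed it more often (7786 of 11444), so the 44.0% depends on the level of the genes counted. The 3 genes of this list with the smallest adjusted p were *Mgll*, *Daglb* and *Maoa*. *Mgll*, which degrades the endocannabinoid 2-arachidonoylglycerol, ran from 50.2 ± 6.55 CPM at ZT2 to 184 ± 34.5 CPM at ZT14 (adjusted p = 2.32e-05), and *Daglb*, which makes it, from 26.5 ± 5.39 CPM at ZT2 to 83.8 ± 14.0 CPM at ZT14 (3.77e-05). *Maoa*, which breaks down serotonin, had 62.6 ± 10.9 CPM at ZT2 and 29.3 ± 3.17 CPM at ZT14 (adjusted p = 0.000184).

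Receptors signal through partners inside the cell. Of 25 tested G protein subunits 20 passed the time test, as *Gng5* (adjusted p = 9.72e-08), *Gnb4* (2.69e-07) and *Gnb2* (1.89e-06) did with their highest means at ZT6 or ZT10. Of 12 receptor regulators 7 passed, with *Rgs16*, which shortens Gi signalling, at 336 ± 43.0 CPM at ZT6 and 54.9 ± 7.97 CPM at ZT18 (SD, n = 3), *Ramp1*, a partner of the calcitonin receptor-like receptor, at 177 ± 39.5 CPM at ZT18 and 23.7 ± 2.29 CPM at ZT22, and *Grk6*, a receptor kinase, at 29.8 ± 6.51 CPM at ZT18 and 10.7 ± 2.89 CPM at ZT2. Of 61 tested receptors for other neuromodulators 29 passed (47.5%), led by *Hrh3*, *Oprl1* and *Prokr2*. *Hrh3*, the histamine autoreceptor gene, had 34.2 ± 7.59 CPM at ZT14 and 1.70 ± 0.125 CPM at ZT22 (SD, n = 3).

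The genes whose pattern was nearest to that of a receptor gene were taken as those with the highest Pearson r of log2 CPM over the 18 replicates, after the mean of the own cluster was removed, among 15759 genes averaging 10 or more counts. All points share libraries and depth, and each r is a description. For *Cnr1* these were *Atp2b1*, a calcium pump (r = 0.929), and *Cadm2*, an adhesion molecule (0.889), and for *Adcyap1r1* they were *Prickle1* (0.893) and *Csrnp1* (0.882). For *Npy1r* they were *Uvrag* (0.911) and *Emsy* (0.902), for *Npy5r* *Etv3* (0.885) and *Zbtb39* (0.877), and for *Npy2r* *Gm12500* (0.781) and *Fkbp1b* (0.766). For *Npy2r* the nearest became *Ccdc190* and *Jph1* with a prior count of 0.5, and without removing cluster means r was 0.111 for *Gm12500* and -0.64 for *Fkbp1b*. For *Htr2c* they were *Adcy7* (0.856) and *Gabrg1* (0.843), for *Htr7* *Chd7* (0.855) and *Inpp5d* (0.815), for *Mtnr1a* *Hspbap1* (0.935) and *Nudt6* (0.928), and for *Gpr176* *Plekhg4* (0.854) and *Rbm38* (0.812). Without removing cluster means r was far lower for several of these, as for *Npy1r* with *Uvrag* (0.224), *Htr7* with *Chd7* (0.251), *Adcyap1r1* with *Prickle1* (0.396) and *Htr2c* with *Gabrg1* (0.428). Among pairs of receptor genes the highest values were those of *Npy1r* with *Npy5r* (0.639) and *Cnr1* with *Npy1r* (0.626), and the lowest that of *Npy5r* with *Htr7* (-0.63). Without removing cluster means the highest were those of *Adcyap1r1* with *Npy2r* (0.830) and with *Cnr1* (0.785), and *Npy1r* with *Npy5r* had 0.408.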

How the data were processed

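RNA from 18 pools of captured SCN tissue was amplified (SMARTer, polyA, unstranded) and sequenced as 54 technical replicates. The authors aligned reads with GSNAP to mm10 (GRCm38) and counted them with HTSeq 0.5.4p1. The deposited counts are whole reads per Ensembl gene, with technical replicates combined. The authors' second table holds normalized signal, counts divided by DESeq2 size factors, from which whole reads were recovered (100% of values in every column, tolerance 0.001) as an alternative. Symbols and positions came from GENCODE M21 (GRCm38; 97.2% of identifiers matched) and promoter sequences from RefSeq (GRCm38.p6), where 10 of 10 receptor genes matched; of 3 *Cnr1* starts the one nearest the GENCODE start was used.

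The receptor genes and all lists were chosen with earlier results of these data known. The 18941 genes seen (1 read or more) in over 6 replicates entered tests with edgeR 4.0.16 (R 4.3.3; TMM, quasi-likelihood F-tests, timepoint only, Benjamini-Hochberg over all genes, threshold 0.05). JTK_CYCLE (24 hr, 6 lags, exact two-sided null, Bonferroni over lags) was written in Python 3.11.15 and, like the edgeR step, tested on simulated data. Named were the 10 receptor genes, up to 3 genes per list with the smallest adjusted p and the most abundant marker. Named too were 2 genes nearest in pattern to each receptor gene but *Htr1b*, which averaged under 10 counts. *Emx1*, *Fezf2* and *Vipr2* were named after their values were seen. Alternatives were DESeq2 1.42.0, its size factors, upper-quartile scaling, stricter and looser filters, a replicate block, recovered reads, limma 3.58.1 cosinor fits and leaving out each replicate. P-values measure the spread between pools. The depth was 15412981 to 35820945 counts per replicate.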

Additional observations from a re-analysis of the deposited data

How the results depend on the processing

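*Cnr1*, *Npy1r* and *Adcyap1r1* passed the time test in every alternative, and *Npy2r* in all but a filter that asks every replicate for 10 counts. That filter removes *Npy2r*, *Htr1b* and *Mtnr1a*. Of the receptor genes left 3 pass, where 7786 of the 11444 genes left do. DESeq2 added *Htr1b* (adjusted p = 0.0346) and *Mtnr1a* (0.0237), which made 6 (56.5% of all genes passed in DESeq2). Leaving out 1 replicate gave 4 to 5 receptor genes for the time test and 1 to 4 for cycling. It gave 3 from ZT2 to ZT6, 0 from ZT6 to ZT10, 1 to 4 from ZT10 to ZT14 and 0 to 1 from ZT14 to ZT18. It gave 2 to 4 from ZT18 to ZT22, 0 from ZT22 to ZT2 and 0 to 1 for ZT14 and ZT22 against ZT18 and ZT2. Of the 18605 to 18875 genes in these fits, 7456 to 9129 passed the time test. In the order of the steps the counts were 5217 to 7160, 2 to 50, 1993 to 3937, 0 to 225, 2097 to 4104 and 1 to 17. For the last comparison 0 to 124 passed, and the count for cycling is not given here. DESeq2 called 2 receptor genes from ZT14 to ZT18, adding *Npy1r* (log2 difference -1.10, adjusted p = 0.0149, where 5.17% of all genes passed). For ZT14 and ZT22 against ZT18 and ZT2, 0 receptor genes were called with DESeq2 size factors (*Cnr1* 1.09, adjusted p = 0.0585), with upper-quartile scaling (1.09, 0.0602) and with the replicate block (1.13, 0.0691). Over all 18941 genes 17, 13 and 20 were called in these 3 settings. Benjamini-Hochberg adjustment on top of the lags left 1 cycling receptor gene, *Npy2r*, while cosinor fits left 2 (*Cnr1* and *Npy2r*) and so did recovered reads. Without ZT10 replicate A or B, *Npy2r* alone was called cycling. The cause was not tested in these cases.

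Replicate letters were checked as a pairing: deviations of same-letter replicates correlated between -0.19 and 0.10 over 45 pairs, so the letters share only a name, and the replicate block kept 4 genes in the time test. Upper-quartile scaling moved the median of all genes by -0.15 from ZT10 to ZT14 and by 0.15 from ZT18 to ZT22. No called difference of a receptor gene changed sign in any alternative. Depth limits *Htr1b* and *Npy2r* at ZT6 and ZT10.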
